A study of Mus musculus with 8 samples.

Results

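The Vil1, Cdh1 and Krt8-Krt18 loci were taken from the H3K27ac peak lists of mouse small intestinal crypts as every peak that overlapped 1 of 3 fixed windows of build mm9. The windows were chr1:74430000-74505000 for Vil1 (75 kb), chr8:109100000-109220000 for Cdh1 (120 kb) and chr15:101805000-101885000 for the neighbouring genes Krt8 and Krt18 (80 kb). They held 143 of the 117035 peaks in the 4 lists: the library fed 1 had 40 of its 27640 peaks there and fed 4 had 32 of 15504, while fasted 2 had 37 of 37974 and fasted 5 had 34 of 35917. H3K27ac, the acetylation of lysine 27 on histone H3, marks promoters and enhancers in use and was measured here by chromatin immunoprecipitation and sequencing with the Abcam antibody ab4729.

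Mice aged 6 to 12 weeks either had food and water freely for 24 h (fed) or had water but no food for 24 h (fasted), and whole small intestinal crypts were isolated from them. Each library was made from crypts pooled from 4 animals, with 2 libraries in each feeding state, numbered as in the labels. The labels name the strains Lgr5EGFP-IRES-CreERT2/+ and C57BL/6J and both sexes, without saying which of these went into each pool. Both groups were exposed to 100 nM trichostatin A (TSA), an inhibitor of histone deacetylases, while the crypts were isolated. Both were also held in medium that held a TGF-β RI kinase inhibitor among other supplements. Crypts hold stem, proliferating and secretory cells, so a difference between pools in how many cells of a type carry the mark and a difference in how much of it each cell carries cannot be told apart. The 4 input libraries were not analysed here.

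The members are the structural genes of a simple epithelium. Villin, the product of Vil1, bundles and severs actin filaments in the microvilli of the brush border. E-cadherin, from Cdh1, is the calcium-dependent adhesion molecule of adherens junctions, where its cytoplasmic tail binds catenins. Keratin 8 (type II) and keratin 18 (type I) pair as obligate partners in the intermediate filaments of simple epithelia, and their genes lie next to each other. By gene order in the RefSeq table of GRCm38, the protein-coding neighbours are Ctdsp1 and Usp37 for Vil1, Cdh3 and Tango6 for Cdh1, Krt78 before Krt8 and Eif4b after Krt18. Gene starts were not placed on mm9 here, so peaks are described by their position in the window and none is assigned to a promoter, an exon or a neighbouring gene.

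The letters just before the gene starts are shown because these are the regulatory sequences that name the loci. RefSeq (GRCm38.p6) gave them for 3 of the 4 members, as the 250 bases before each start, 5′ to 3′ on the gene's strand; Vil1 and Krt18 lie on the plus strand and Krt8 on the minus strand. Capitals mark matches to any of 5 motifs searched on both strands, which are spelled out after the sequences with the share of all 32851 RefSeq promoters of this length that hold each.
Vil1: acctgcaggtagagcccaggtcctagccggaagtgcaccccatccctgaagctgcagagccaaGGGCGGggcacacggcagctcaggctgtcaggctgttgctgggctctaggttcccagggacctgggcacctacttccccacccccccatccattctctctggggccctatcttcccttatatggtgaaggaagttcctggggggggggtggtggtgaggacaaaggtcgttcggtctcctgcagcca
Krt8: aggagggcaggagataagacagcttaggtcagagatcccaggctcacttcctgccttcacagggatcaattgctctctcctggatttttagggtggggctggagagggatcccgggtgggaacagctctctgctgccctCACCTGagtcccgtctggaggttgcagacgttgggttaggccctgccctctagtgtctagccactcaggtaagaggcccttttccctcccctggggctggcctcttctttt
Krt18: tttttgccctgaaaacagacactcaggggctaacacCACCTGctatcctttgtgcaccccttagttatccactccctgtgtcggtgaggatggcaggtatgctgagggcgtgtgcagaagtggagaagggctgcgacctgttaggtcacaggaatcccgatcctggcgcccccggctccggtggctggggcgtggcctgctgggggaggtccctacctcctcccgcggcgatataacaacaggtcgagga

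Each of these sequences held a single match. Vil1 had the GC box (GGGCGG), 187 to 182 bases before its start, which 32.7% of all promoters held. Krt8 and Krt18 each had an E-box of the kind that Snail-type repressors bind (CAGGTG, read here on the opposite strand), 111 to 106 and 214 to 209 bases before the start, and 17.2% of all promoters held one. The letters of the TATA box, searched as TATAAA and held by 12.4% of all promoters, did not occur in these windows. Neither did the motif of Cdx-type factors, searched as TTTATNG and held by 9.8%, nor the CCAAT box, held by 33.8%. None of the matches overlapped another. A match is a description of the letters and not a binding site, and these sequences were not placed under the mm9 peaks.

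All 3 loci carried H3K27ac peaks in each of the 4 libraries, over more of the window in both fasted than in both fed libraries. At the Krt8-Krt18 locus the peaks of fed 1 covered 33.5 kb and those of fed 4 19.4 kb, while those of fasted 2 covered 56.7 kb and those of fasted 5 64.2 kb. This is 41.9%, 24.2%, 70.9% and 80.3% of the window in that order. At the Cdh1 locus fed 1 had 38.7 kb and fed 4 21.2 kb under a peak, while fasted 2 had 62.9 kb and fasted 5 70.5 kb, or 32.3%, 17.6%, 52.4% and 58.8% of the window. At the Vil1 locus fed 1 had 24.1 kb and fed 4 8.83 kb, while fasted 2 had 34.0 kb and fasted 5 38.9 kb, or 32.2%, 11.8%, 45.4% and 51.8%. The groups did not overlap at any locus, and fed 4 was the lowest at each.

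**Figure D1:**
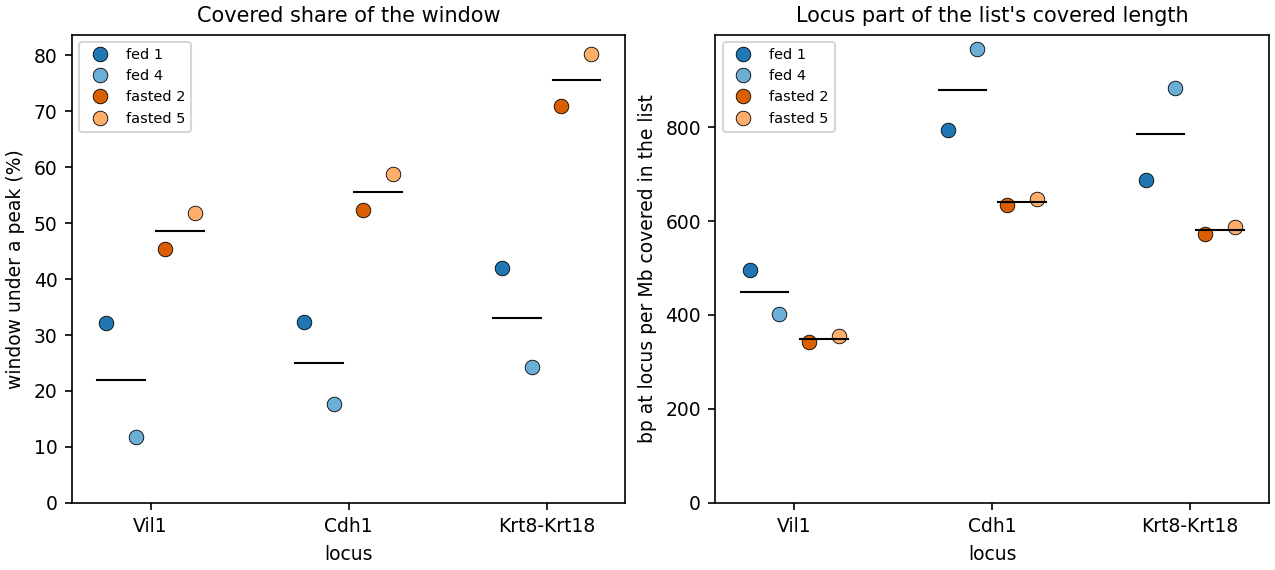
Left, share of each locus window under a peak (%) and right, bp of the locus under a peak per Mb covered in the whole list, for each library (points; lines are the means of the 2 libraries of a feeding state). Fasted libraries lie above fed libraries on the left at each locus and below them on the right.

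Set beside all genome windows of the same width that held a peak of any library, tiled from the start of each chromosome, the keratin locus stood highest. Of 10875 windows of 80 kb, 79 in fed 1 and 90 in fed 4 were covered as much or more than the Krt8-Krt18 locus, and 40 in fasted 2 and 9 in fasted 5. Of 8476 windows of 120 kb, 111, 114, 99 and 38 were covered as much or more than the Cdh1 locus in fed 1, fed 4, fasted 2 and fasted 5. The Vil1 locus ranked lower, with 280, 631, 457 and 251 of 11306 windows of 75 kb covered as much or more in the same order of libraries. The median 80 kb window had 1.68 kb covered in fed 1 and 0 in fed 4, compared with 4.70 kb in fasted 2 and 6.05 kb in fasted 5. Locus windows were placed around genes whereas the tiled windows were not, and the loci were chosen with results of these data known, so the ranks describe these lists.

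The comparison of feeding states asked whether the acetylated length at the epithelial genes differed between fed and fasted crypts. Covered length was 60.5 ± 5.27 kb in fasted and 26.4 ± 10.0 kb in fed libraries at Krt8-Krt18 (mean ± SD, n = 2), a ratio of 2.29. It was 66.7 ± 5.41 against 29.9 ± 12.4 kb at Cdh1, a ratio of 2.23, and 36.5 ± 3.42 against 16.5 ± 10.8 kb at Vil1 (SD, n = 2), a ratio of 2.21. By a two-sided exact permutation test p was 0.333 at each locus, the smallest value that 2 libraries against 2 can give. Of the genome windows that held a peak of all 4 libraries, the same order was found in 95.8% at 80 kb, 97.3% at 120 kb and 95.7% at 75 kb. Of the windows with a peak of any library, it was found in 81.9%, 84.2% and 81.4%. The order at the 3 loci is thus that of most genome windows of these widths that held a peak. With top-scoring peaks of equal covered length taken from each list, the difference turned to -7048.5 bp at Cdh1, where fasted 5 then had 0 peaks, and shrank from 34026.5 to 1207 bp at Krt8-Krt18, and the groups overlapped at both. Without fed 4 the Vil1 difference was 12302.5 bp, compared with 19960 bp.

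The size of the difference was not above that of the lists either. Whole fasted lists covered 2.95 times as much as whole fed lists, and the median window of 80, 120 and 75 kb had a ratio of 2.73, 2.87 and 2.71. The locus ratios lay at or above those of 31.8% of windows for Krt8-Krt18, 24.6% for Cdh1 and 28.5% for Vil1. These windows were not matched to the loci for covered length. Covered length cannot exceed the window, of which fed 1 already covered 41.9% at Krt8-Krt18, so the ratio had an upper limit. Sequencing depth is unknown, and its part in the difference was not tested.

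The deposited file names carry the number 10 for fed 1 and fasted 2 and 11 for fed 4 and fasted 5; the labels do not say what it stands for. Within number 10 the fasted library covered 1.41 times as much as the fed library at Vil1, 1.62 at Cdh1 and 1.69 at Krt8-Krt18, where the whole lists gave 2.03. Within number 11 the ratios were 4.40, 3.33 and 3.32, where the whole lists gave 4.98. The fasted library covered more at each locus within both numbers, and at each the ratio lay below that of the lists.

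**Figure D2:**
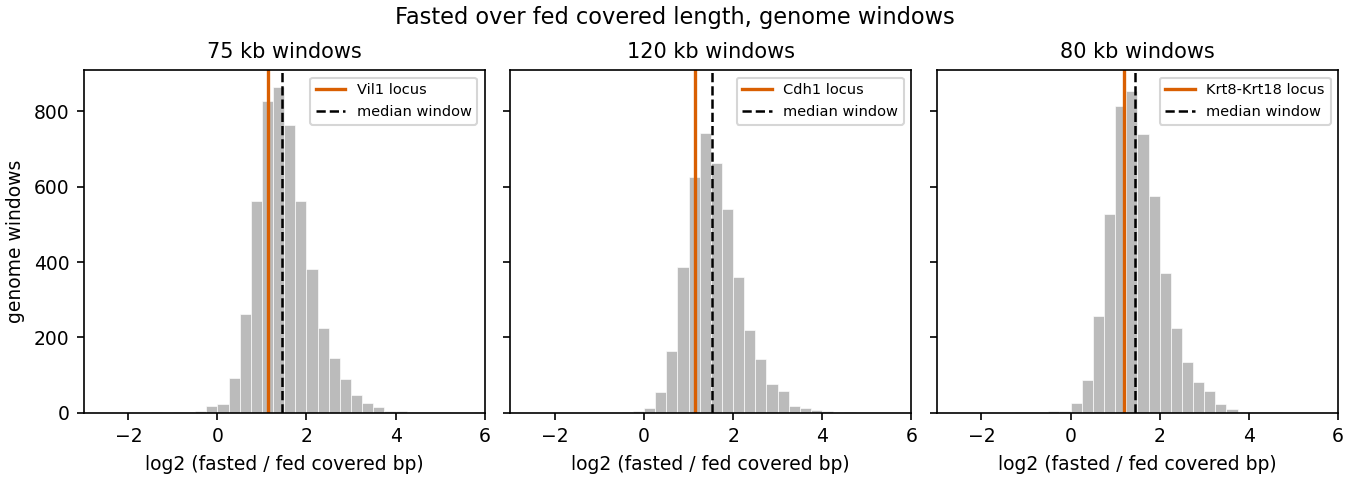
Number of genome windows by the log2 ratio of fasted over fed covered bp (windows with a peak of all 4 libraries, at the width of each locus window). The orange line, the locus, stands to the left of the dashed median in each panel, at ratios of 2.21 for Vil1, 2.23 for Cdh1 and 2.29 for Krt8-Krt18.

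As a part of its own list, each locus was larger in the fed libraries. Per Mb covered in the list, Cdh1 held 794 bp in fed 1 and 966 in fed 4, compared with 634 in fasted 2 and 646 in fasted 5. Krt8-Krt18 held 688, 883, 572 and 588 bp per Mb in the same order. Vil1 held 495, 403, 343 and 356 bp per Mb. The fed pair stood above the fasted pair at all 3 loci (exact permutation p = 0.333, n = 2 per group). That order held in 28.9% of 120 kb, 31.3% of 80 kb and 31.5% of 75 kb windows with a peak of all 4 libraries, and the opposite order in 24.2%, 20.9% and 20.7%. With peaks of equal covered length, the difference, fasted minus fed, turned from -99.5 to 621.6 bp per Mb at Vil1 and from -205.3 to 55.05 at Krt8-Krt18. At Cdh1 it was -321.7 in that setting, but the groups overlapped. Fasted 2 then held 1206.9 bp per Mb there, above both fed libraries, and fasted 5 held 0. At Vil1 the groups also overlapped with equal numbers of peaks (-27.11 bp per Mb) and with a minimum score of 200 (-316.7). A fed library decided much of the size: without fed 4 the difference was -107.5 at Krt8-Krt18 and -153.7 at Cdh1 (from -239.5 with all libraries), and without fed 1 it was -53.44 at Vil1.

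By feeding state, peak numbers followed covered length at Krt8-Krt18 but not at Cdh1 or Vil1. Cdh1 had 18 peaks in fed 1 and 16 in fed 4, compared with 14 in fasted 2 and 11 in fasted 5, so the fed libraries had more peaks over less length (exact permutation p = 0.333, n = 2). Over the 6931 regions of the genome with a peak in all 4 libraries, fed 1 had a mean of 2.17 peaks and fed 4 of 1.74. Fasted 2 had 1.63 and fasted 5 had 1.35. The share of genome windows with either order of peak numbers is not given here. With a minimum score of 100 the Cdh1 difference turned to 2.5 more peaks in the fasted libraries. Krt8-Krt18 had 13, 12, 17 and 15 peaks in the same order, with more in the fasted libraries (exact permutation p = 0.333, n = 2). That difference turned from 3.5 to -2.5 with equal numbers of peaks and to -6.5 at equal covered length, with more in both fed libraries. Vil1 had 9, 4, 6 and 8 peaks, and the groups overlapped (exact permutation p = 1). The widest peak was broader in both fasted libraries at each locus, and the share of genome windows with this order is not given here. Over whole lists the median peak width was 1365 bp in fed 1 and 1189 in fed 4, compared with 1709 in fasted 2 and 2077 in fasted 5. At Cdh1 the widest peak spanned 6519 bp in fed 1 and 3070 in fed 4, compared with 17500 in fasted 2 and 28106 in fasted 5. At Krt8-Krt18 it spanned 7136, 3955, 15081 and 19075 bp, and at Vil1 8509, 3512, 12212 and 13856 bp. Peaks wider than 10 kb made up 0.174% of all peaks in fed 1 and 0.013% in fed 4, compared with 2.49% in fasted 2 and 3.57% in fasted 5.

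**Figure D3:**
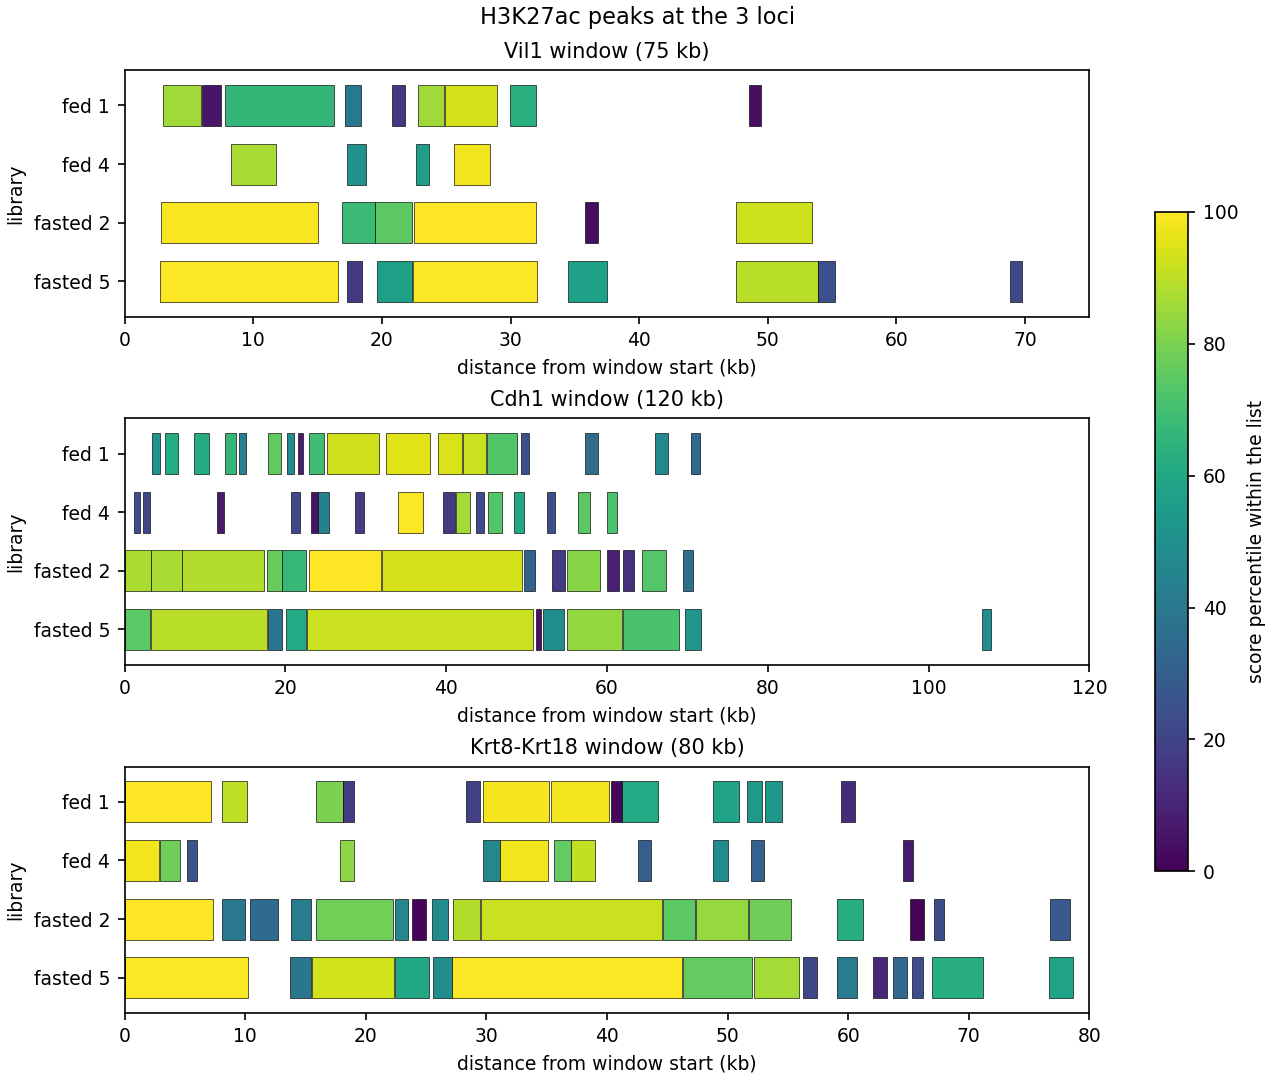
Peaks of each library along the 3 windows, as boxes from start to end (kb from the window start, clipped to the window), coloured by the score percentile within the library's list. Fasted peaks join stretches that several fed peaks divide, as between about 23 and 51 kb of the Cdh1 window, and the far part of the Cdh1 window holds a single peak, in fasted 5.

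Every fed peak at the loci lay over a fasted peak. All 40 fed 1 peaks and all 32 fed 4 peaks had an overlapping peak in at least 1 fasted list, where 90.3% of all fed 1 and 91.8% of all fed 4 peaks did. In the other direction 27 of 37 fasted 2 peaks overlapped a fed peak (51.8% in the whole list), and 22 of 34 fasted 5 peaks did (48.9% in the whole list). At Cdh1 these were 13 of 14 and 9 of 11 peaks, at Vil1 5 of 6 and 5 of 8, and at Krt8-Krt18 9 of 17 and 8 of 15. In both fasted lists the share was highest at Cdh1 and lowest at the keratin genes, a difference that was not tested.

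Base by base, bases under a peak in all 4 libraries were 8.26 kb at Vil1, 14.0 kb at Cdh1 and 18.1 kb at Krt8-Krt18. These are 20.4%, 19.6% and 26.7% of the bases under any peak, against 10.2% over the genome. Bases under both fasted and neither fed library were 9395 bp at Vil1, 17.9 kb at Cdh1 and 19.9 kb at Krt8-Krt18, or 23.2%, 25.03% and 29.4%, against 28.6% over the genome. No base at the 3 loci was under both fed and neither fasted library, a class that makes up 0.125% of the genome's peak bases.

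The 2 fasted libraries shared most of their bases at each locus. Their Jaccard index, the shared bases divided by the bases under either, was 0.799 at Vil1, 0.864 at Cdh1 and 0.793 at Krt8-Krt18, against 0.650 over the genome. The fed pair had an index of 0.336 at Vil1, 0.310 at Cdh1 and 0.523 at Krt8-Krt18, against 0.254 over the genome. At Vil1 and Cdh1 fed 1 shared more with fasted 2 (0.648 and 0.586) and with fasted 5 (0.616 and 0.549) than with fed 4, as it did over the genome (0.396 and 0.368). At the keratin genes its index was 0.583 with fasted 2 and 0.520 with fasted 5, above and about that with fed 4. Lists of unlike length hold this index down.

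Joining the peaks of all lists that shared at least 1 bp gave 31 regions at the 3 loci: 8 at Vil1, 10 at Cdh1 and 13 at Krt8-Krt18, numbered below along each window. A peak in all 4 libraries was found at 10 of the 31 (16.1% of all 43091 regions of the genome), namely 3 at Vil1, 4 at Cdh1 and 3 at Krt8-Krt18. Peaks of both fasted libraries and no fed peak were found at 6 of the 31 (19.3% over the genome), with 1 at Vil1, 0 at Cdh1 and 5 at Krt8-Krt18. No region had a peak in both fed and neither fasted library (0.297% over the genome). The fasted pair covered more bases than the fed pair, without overlap, at 22 of the 31 regions (49.4% over the genome), and the reverse was found at 0 (0.383% over the genome). Among the regions with a peak in all 4 libraries the fasted libraries covered more at 8 of 10 (91.3% over the genome), the exceptions being regions 1 and 2 of Vil1. At equal covered length the 6 regions became 0 and the 22 of 31 became 2 of 19. Leaving out a library loosens the criterion, because 1 library then stands for its group, so larger counts follow in part from the definition. The 6 regions became 12 without fasted 2, 11 without fed 1 and 10 without fasted 5. The 22 of 31 became 31 of 32 without fasted 2 and 33 of 35 without fasted 5. Genome shares under these settings are not given here.

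**Figure D4:**
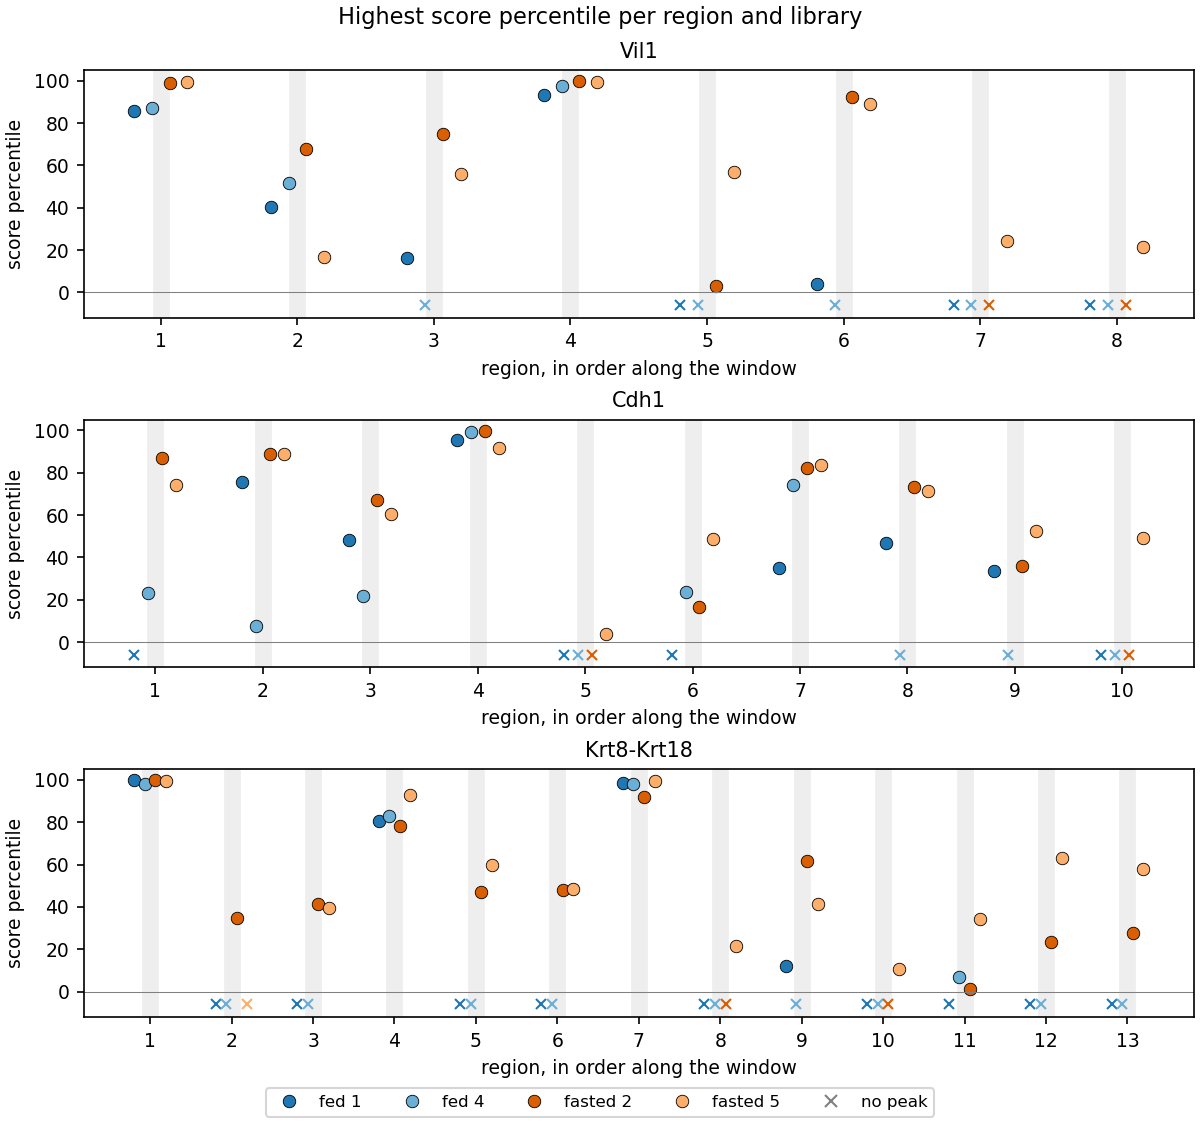
Highest score percentile of each library's peaks in each region, in order along the windows (crosses below 0 mark a library with no peak there). Regions 1 and 4 of Vil1, 4 of Cdh1 and 1 and 7 of Krt8-Krt18 have all 4 libraries above the 85th percentile.

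Ranks within each list placed the same few regions first. The score percentile of a peak is the share of its own list that scored no higher. The score is the authors' and its scale is not stated. Scores were set side by side between lists only in the alternatives with a score minimum, where the same minimum kept unlike parts of the lists. In fasted 5, 1282 peaks shared the score 3100 and stand at percentile 99.6, the upper edge of a tie that begins at 96.0. The region of Vil1 with the highest mean percentile, region 4 (chr1:74452436-74462045, 9610 bp), reached percentile 93.4 in fed 1 and 97.7 in fed 4, compared with 99.9 in fasted 2 and the tied score in fasted 5. Peaks there covered 8075 bp in fed 1 and 3850 in fed 4, split over 3 and 2 peaks, and 9423 bp in fasted 2 and 9610 in fasted 5, each as a single peak. Both fasted libraries thus had a continuous peak where the fed libraries had gaps.

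Region 1 of Vil1 (chr1:74432710-74446565, 13856 bp) stood at percentile 85.8 in fed 1 and 87.0 in fed 4, compared with 98.8 in fasted 2 and the tied score in fasted 5. Its covered length was 12935 bp in fed 1 and 3512 in fed 4, compared with 12212 in fasted 2 and 13856 in fasted 5, so fed 1 lay above fasted 2 and the groups overlapped. Region 2 (chr1:74446895-74449449) went the other way in rank in fasted 5, at percentile 16.6 against 40.6 in fed 1, 51.5 in fed 4 and 67.6 in fasted 2.

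The far part of the Vil1 window held the widest gap in rank between feeding states among the 31 regions, and it is singled out here for that reason, after its values were seen. Region 6 (chr1:74477492-74483880, 6389 bp), between 47.5 and 53.9 kb into the window, stood at percentile 92.4 in fasted 2 and 89.1 in fasted 5. In fed 1 its only peak was 901 bp wide with a score of 51.62, at percentile 3.83 and just above the lowest score of that list (50.01), and fed 4 had no peak. Fasted peaks covered 5949 and 6318 bp of it. Of the 2697 regions at or above percentile 89.1, the lower of these 2 values, in both fasted lists, 435 (16.1%) had no fed 4 peak. In 32 (1.19%) no peak of either fed list stood above percentile 3.83. The gap from the lower fasted to the higher fed percentile was 85.3 points, and 75 of the 22926 regions with a peak in both fasted libraries had a gap as large or larger. No test was made of a single region with 2 libraries in each group.

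At Cdh1, region 4 (chr8:109122720-109151022, 28303 bp) led in all 4 libraries, at percentile 95.5 in fed 1 and 99.2 in fed 4, and at 99.7 in fasted 2 and 91.9 in fasted 5. Its width exceeds that of nearly all regions of the genome (width percentile 99.8). Peaks covered 24339 bp of it in fed 1 and 13681 in fed 4, compared with 27860 in fasted 2 and 28106 in fasted 5. The fed libraries divided it into 7 and 9 peaks, fasted 2 into 3, and fasted 5 had a single peak. Over the 75 regions of the genome with a peak of all 4 libraries and a width of 28 kb or more, fed 1 had a mean of 8.31 peaks and fed 4 of 7.27, while fasted 2 had 3.45 and fasted 5 had 2.59. The stretch common to all 4 libraries was longest at chr8:109134051-109137120 (3070 bp), which is the highest-scoring Cdh1 peak of fed 4 and lies inside that of fed 1 (chr8:109132512-109137959). In fasted 2 the highest-scoring peak was the neighbouring chr8:109122958-109131907, so the leading peaks of the fed libraries and of fasted 2 did not overlap.

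Region 2 of Cdh1 (chr8:109103277-109119573, 16297 bp) separated the fed libraries from each other. Peaks covered 8565 bp in fed 1 and 894 in fed 4, at percentiles 75.6 and 7.39, against 15924 bp in fasted 2 and 16201 in fasted 5, at percentiles 88.6 and 89.1. Regions 7 to 9, from 55.0 to 71.7 kb into the window, had peaks in both fasted libraries and in fed 1. Fed 4 had peaks in region 7 but none in regions 8 and 9. Beyond 71.7 kb no library had a peak over the next 34917 bp, up to a single fasted 5 peak of 1166 bp at percentile 49.2.

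The keratin window had a pair of leading regions with a run of weaker ones between and after them. Region 1 (chr15:101803383-101815232, 11850 bp) stood at percentile 99.9 in fed 1 and 98.1 in fed 4, and at 99.9 in fasted 2 and the tied score in fasted 5. Region 7 (chr15:101832167-101860946, 28780 bp) stood at 98.5 in fed 1 and 98.3 in fed 4, and at 92.1 in fasted 2 and the tied score in fasted 5. Its covered length was 20109 bp in fed 1 and 12051 in fed 4, compared with 27728 in fasted 2 and 28616 in fasted 5, over 8, 7, 5 and 3 peaks. In fed 4 the highest-scoring peak of the window was chr15:101836119-101840073 in region 7, and all of its 3955 bp lay under a peak in each of the 4 libraries. In fed 1 and fasted 2 the highest-scoring peak lay in region 1.

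The 5 keratin regions with fasted peaks alone ranked lower. Regions 3, 5 and 6 lay between 13.7 and 27.1 kb into the window, and regions 12 and 13 between 66.9 and 78.7 kb. Their percentiles ran from 23.4 to 48.0 in fasted 2 and from 39.5 to 63.0 in fasted 5. Between the leading regions, region 4 (chr15:101820556-101827320) had peaks in all libraries, at percentiles 80.4 in fed 1 and 83.1 in fed 4, and 78.4 in fasted 2 and 93.1 in fasted 5, and fasted peaks covered 6333 and 6765 bp of it against 3134 in fed 1 and 1151 in fed 4.

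The highest percentile at a locus overlapped between feeding states except at Vil1. At Krt8-Krt18 it was 99.9 in fed 1 and 98.3 in fed 4, and 99.9 in fasted 2 and 99.6 in fasted 5, and the groups overlapped (exact permutation p = 0.667). At Cdh1 the groups also overlapped (exact permutation p = 1), with fasted 5 the lowest at 91.9. At Vil1 the fasted pair stood above the fed pair, by a mean of 4.22 percentile points (exact permutation p = 0.333, n = 2). The difference was 2.08 points without fed 1 and 6.35 without fed 4. With a minimum score of 200 it was 52.79, but that minimum shortened the fed lists most. It kept 3639 peaks in fed 1 and 640 in fed 4, compared with 14195 in fasted 2 and 20009 in fasted 5. Within these shorter lists the highest Vil1 percentile was 49.85 in fed 1 and 43.59 in fed 4. With the lower edge of the tie in fasted 5 (96.0) in place of the upper, the Vil1 value of fasted 5 fell below that of fed 4 (97.7), and the difference was 2.44. At equal covered length the Vil1 groups also overlapped, with fasted 5 at 94.57 and fed 4 at 97.67. How many genome windows had the Vil1 order of percentiles is not given here. The share of locus peaks at or above the 90th percentile was 22.5% in fed 1 and 15.6% in fed 4, compared with 18.9% in fasted 2 and 17.6% in fasted 5; by construction about 10% of any list lies there.

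The window edges fell next to peaks in some places. The leading keratin region began 1.62 kb before its window start, and peaks of fed 4, fasted 2 and fasted 5 crossed that edge; the next peak outside was 435 kb or more away in each library. On the other side of the keratin window the nearest outside peak was 2.41 to 12.5 kb away. Both fasted libraries had a peak across the start of the Cdh1 window, with further peaks 0.56 to 3.85 kb outside it in the 4 libraries, and none within 195 kb after its end. Around Vil1 the nearest outside peak before the start was 0.974 kb away in fasted 2 (percentile 29.9) and 45.5 to 78.4 kb away in the other lists.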

How the data were processed

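Each deposited file held the peaks the authors called on a single H3K27ac library, with a score per peak. The submitters' processing notes list build mm9, deepTools 1.5.11, SAMtools 1.9, Bowtie 1.1.2 and FastQC, and the sources used here give no settings. The names of the deposited files and peaks carry MACS and the absence of its shifting model. The files hold no read counts, so depth and its precision are unknown.

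Peaks were used as deposited (Python 3.11.15, numpy 2.4.6), and covered lengths were clipped to the window. Positions count from 1. Values per library were compared by two-sided exact permutation tests over 2 fed and 2 fasted libraries. The functions for covered length, percentiles and merged regions were tested on simulated lists, and the permutation test on a single fixed case. The code for equal lists, genome windows, clusters and the Jaccard index was not tested in this way. All members, every region of the windows and, for each locus, the leading region and each library's highest-scoring peak were described. The members and lists were chosen with earlier results of these data known. Alternatives were score minimums of 100 and 200, lists of equal number or covered length, windows changed by 10 kb, peaks by midpoint, tie edges, merging across 1 kb and leaving out each library. The Vil1 far region and the Jaccard and base comparisons were added after seeing the data. Marker loci of the crypt were not placed on mm9, and the members are genes of simple epithelia, so the crypt label was not checked here.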

Additional observations from a re-analysis of the deposited data

How the results depend on the processing

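Of 167 values recomputed under alternative settings, 134 kept their direction or stayed within 1.5 times a count, 19 turned to 0 or to the other sign and 14 counts moved further. The larger covered length of the fasted libraries kept its direction in 32 of 33 values over the 3 loci. Only the setting with top-scoring peaks of equal covered length removed the greater total length of the fasted lists. There the difference turned to -7048.5 bp at Cdh1, where fasted 5 then had 0 peaks, and was 1207 bp at Krt8-Krt18. Fed and fasted libraries overlapped at both loci, but not at Vil1 (13622.5 bp). In that setting the share of the list turned to 621.6 bp per Mb at Vil1 and 55.05 at Krt8-Krt18. At Cdh1 the share stayed negative (-321.7), but the groups overlapped. The difference in peaks turned to -1.5 at Vil1 and -6.5 at Krt8-Krt18, and the highest percentile at Krt8-Krt18 to -2.1 points. Cdh1 then has no percentile in fasted 5, and the highest percentiles of the groups overlap at Vil1. With equal numbers of top-scoring peaks, the difference in peaks was 0 at Vil1 and -2.5 at Krt8-Krt18. At scores of 100 and 200 or more, Cdh1 had 2.5 and 6.5 more fasted peaks and a highest percentile 1.01 and 18.59 points higher in the fasted libraries. These minimums kept fewer peaks of the fed lists. At 200 they kept 3639 in fed 1 and 640 in fed 4, compared with 14195 in fasted 2 and 20009 in fasted 5. The Krt8-Krt18 percentile difference was -2.53 with the narrowed window and -1.1 with the lower edge of ties. Leaving out a library gave Vil1 peak differences from -2 (without fed 4) to 3 (without fed 1), Cdh1 percentile differences from -5.51 (without fasted 2) to 2.36 (without fasted 5) and Krt8-Krt18 percentile differences from -0.15 (without fed 4) to 1.51 (without fed 1). The causes were not tested.

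Regions with a peak in all 4 libraries numbered 6 of 25 and 4 of 22 at scores of 100 and 200 or more, 3 of 19 at equal covered length and 4 of 9 when merged across 1 kb, against 10 of 31. Regions with fasted peaks alone numbered 1 of 21 with equal numbers of peaks, 0 of 19 at equal covered length and 2 of 9 when merged across 1 kb, against 6 of 31, and 9 of 32 (without fed 4) to 12 of 32 (without fasted 2) when a library was left out. Regions where both fasted libraries covered more numbered 12 of 22 at scores of 200 or more, 11 of 21 with equal numbers of peaks, 2 of 19 at equal covered length and 7 of 9 when merged across 1 kb, against 22 of 31. Without a library they numbered from 22 of 32 (without fed 4) to 33 of 35 (without fasted 5). Leaving out a library loosens the criteria for both kinds of region, because 1 library then stands for its group. Shares over all regions of the genome under these settings are not given here. A change at the loci can therefore not be told apart from a change in the whole lists. No paired analysis was possible because the fed and fasted libraries share no replicate number in the labels; the numbers in the file names are not stated to pair libraries, and the differences within them are given above without a test. With 2 libraries in each group no p can fall below 0.333, so no setting could make or end a call.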

Other observations

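Joined across gaps of up to 10 kb, the Cdh1 peaks of each library, except the far peak of fasted 5, formed a single cluster that reached past the start of the window. It covered 44.6 kb in fed 1 and 24.8 kb in fed 4, against 73.0 kb in fasted 2 and 78.6 kb in fasted 5, and by covered length ranked 44th of 5078 clusters of 2 or more peaks in fed 1 and 38th of 3086 in fed 4, against 61st of 6744 in fasted 2 and 35th of 6990 in fasted 5. The keratin cluster ranked 109th in fed 1, 67th in fasted 2 and 38th in fasted 5, but was split in fed 4, with parts ranked 249th and 886th. The largest Vil1 cluster ranked 291st, 475th, 651st and 559th in fed 1, fed 4, fasted 2 and fasted 5. In fasted 2 and fasted 5 the keratin cluster ran past the end of its window, to a span of 103.8 and 103.6 kb, against 60.5 kb in fed 1.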
